A study of Drosophila melanogaster with 16 samples.

Results

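The euchromatic X chromosome of the fruit fly carried 340 of the 2020 insulation boundaries and 79 of the 313 chromatin loops in a contact map of early embryos. The members were all boundaries from the tip of X to a fixed limit near the start of pericentromeric heterochromatin, with exact repeat entries removed, and all X loops whose left anchor starts before the same limit. Positions alone chose them from the authors' lists of boundaries and loops, so no strength or value entered that step. The lists themselves were already selected by the authors. The boundary list leaves out boundaries below a minimum strength, and the loop list is labelled as filtered. The members were also chosen with earlier results of these data known. On the dm6 build the last boundary inside the limit lay at 22481601 (strength 1.50) and the next one outside it at 22908401 (strength 1.60). The left anchor of the last loop lay at 21453601, and X had no loop beyond the limit.

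Contacts were mapped by Micro-C, in which chromatin is crosslinked, cut between nucleosomes by micrococcal nuclease and ligated, so that ligated ends report which pieces lay close together. The values come from the yw control line, with 2 samples, in embryos at nuclear cycle 14. The other 14 of the 16 samples carried edited genotypes (SF1_del, SF2_del, Dfd_3Ins, Scr_DTE, AntpDTE1, AntpII1, ScrEE1 and ScrEE2) and were not analysed here. Each list gives a single value per boundary or loop for the line, so no value has a replicate error, the depth behind it is unknown and no difference below was tested. The labels mention whole embryos pooled over collection rounds and no sorting by sex, and male embryos carry 1 X chromosome while females carry 2. How the difference in X copies enters the map was not tested.

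An insulation boundary is a place that contacts tend not to cross, and the stretch between neighbouring boundaries is called a domain. A loop is a pair of sites, its anchors, that touch more often than the sequence around them. In fly embryos boundaries are known to form largely at the ends of active housekeeping genes, while many loops are known to join promoters and distal elements of developmental genes. X is also the chromosome that sets sex: embryos count X-linked signal genes to switch on Sxl, and males later raise X transcription through a complex that carries the RNAs roX1 and roX2.

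Boundary strength and loop value are the authors' own scores, whose scale the sources do not state, and each is compared only with others of its kind. Strength on X had a median of 1.64 (95% binomial interval of the median 1.58 to 1.72), quartiles of 1.44 and 1.97, and a highest value of 4.76. Loop value had a median of 8.65 (6.95 to 14.5), quartiles of 5.68 and 21.3, and a range of 4.27 to 127.5. Loops spanned a median of 28.0 kb (24.8 to 35.6), from 6.80 to 161.2 kb. Domains had a median of 38 kb (29.2 to 44.0), with quartiles of 11.2 and 90.2 kb and a largest value of 635.2 kb. The intervals in brackets concern the median over the listed features. They give neither the spread among features, for which quartiles or ranges are printed, nor the error of a measurement.

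X combined few genes with many features. It had 96.4 protein-coding genes per Mb, against 124.1 over the euchromatic parts of the autosomal arms and 117.8 to 141.0 on single arms. Boundaries numbered 15.1 per Mb of X, against 13.3 per Mb of the autosomes, where 2L had 11.8, 3L 12.9, 3R 13.0 and 2R 15.8. X thus lay inside the range of the autosomal arms for boundaries per Mb. Loops numbered 3.51 per Mb of X, against 2.43 per Mb of the autosomes, with arms from 2.05 (3L) to 3.05 (2L), so X lay above each of the 4 arms. Counted per gene the gap was wider for both kinds, which follows from the lower gene density of X. X had 15.7 boundaries per 100 protein-coding genes, against 10.7 on the autosomes and 9.89 to 11.2 on single arms. It had 3.64 loops per 100 genes, against 1.96 on the autosomes and 1.71 to 2.56 on single arms.

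For strength, loop value, span and domain size, the intervals of the X and autosomal medians overlapped. The median strength was 1.64 on X and 1.60 on autosomes, and the medians of single arms ran from 1.55 (3L) to 1.65 (2L). The median loop value was 8.65 on X and 7.64 on autosomes, and 3L, at 11, was above X. The median span was 28.0 kb on X and 34.0 kb on autosomes (28.8 to 37.6), with 3R at 26.0 kb below X. Median domain size was 38 kb on X and 40.0 kb on autosomes. X held 14 of the 50 strongest euchromatic boundaries (28%, against 21.7% of all 1565), and these 14 include 4 entries of equal strength in Muc14A. It held 16 of the 50 loops of highest value in the whole map (32%, against 25.2% of all 313). Both counts lie near the share of X in all features.

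**Figure D1:**
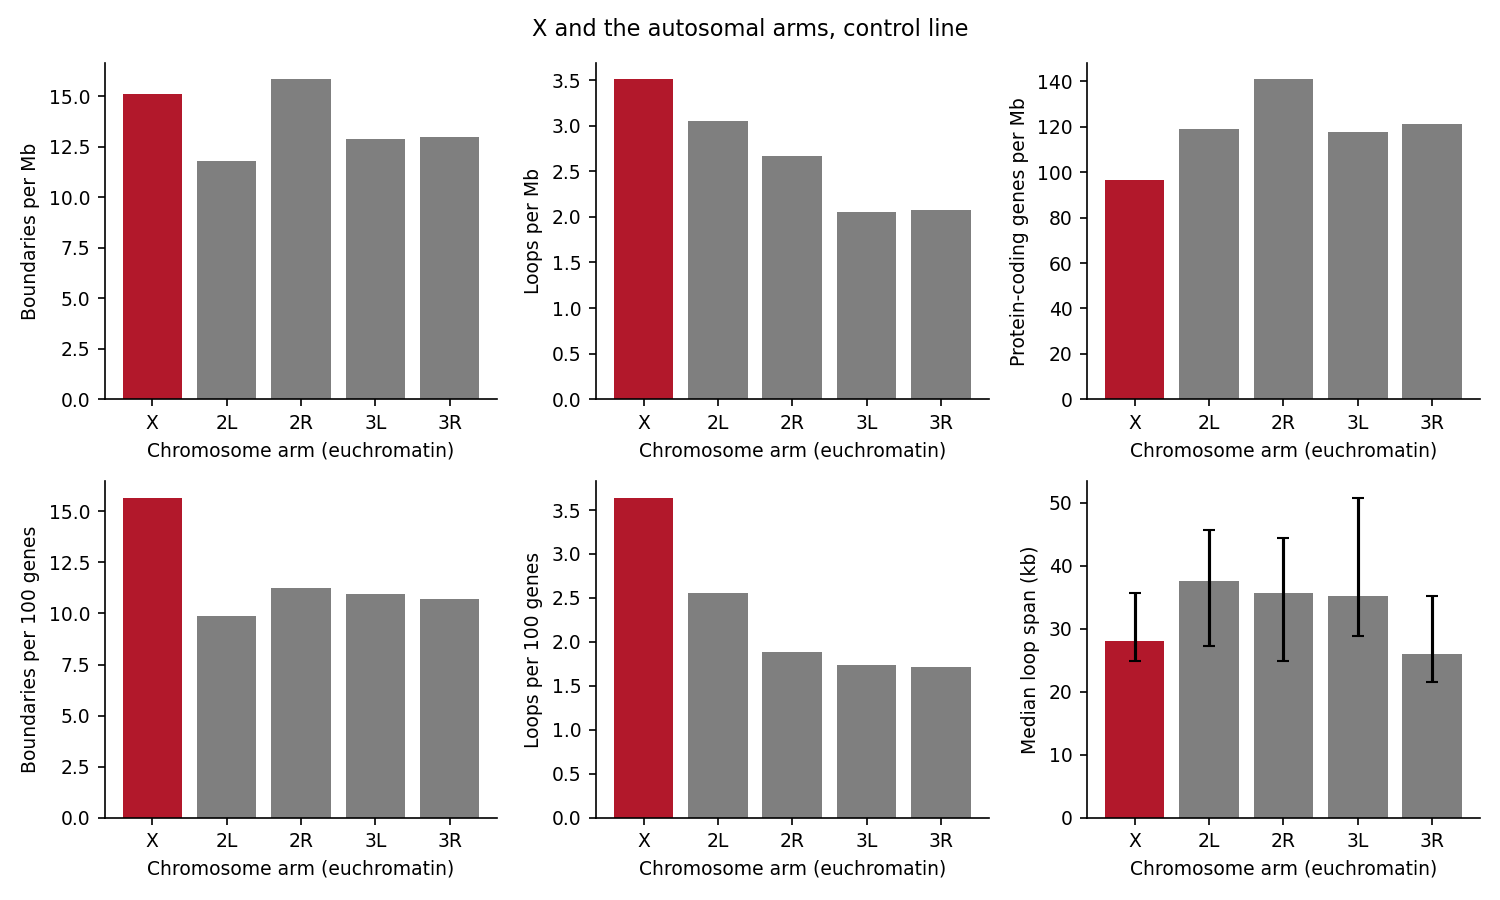
Bars give, for the euchromatic part of X (red) and of the autosomal arms (grey), boundaries, loops and protein-coding genes per Mb, boundaries and loops per 100 protein-coding genes, and the median loop span in kb with its 95% binomial interval. X is the arm with the fewest genes per Mb (96.4) and the most loops per Mb (3.51), and its span interval overlaps that of every other arm.

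Boundaries and loops were spread unevenly along the whole of X. In 9 windows of 2.5 Mb from the tip, the number of boundaries ran from 27 (2.5 to 5 Mb) to 51 (15 to 17.5 Mb). The number of loops ran from 5 (the last window) to 12 (2.5 to 5 Mb). The window with the fewest boundaries was the one with the most loops. That window had 191 protein-coding genes, fewer than every other window but the last, which had 167. Its boundaries also had the highest median strength of the 9 windows, 1.79. The lowest median strength, 1.54, belonged to the window from 12.5 to 15 Mb. Across the 9 windows the rank correlation of boundaries with genes was 0.57, that of loops with genes 0.11 and that of boundaries with loops 0.19. In 23 windows of 1 Mb these values were 0.59, -0.06 and 0.22. In 5 windows of 5 Mb, of which the last is cut short by the limit, they were 1.00, 0.82 and 0.82. The relation of loops to genes and to boundaries thus depended on the window size. Windows share the map and its depth, so these are descriptions only.

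At finer scale, the interval from 16 to 17 Mb held 29 boundaries and the interval from 4 to 5 Mb held 7, with 5 loops in each. The longest stretch with no loop ran 994.4 kb from the end of the last loop to the limit and contained 18 boundaries and 40 protein-coding genes. Another, of 887.2 kb between 19370401 and 20257600, contained 19 boundaries and 118 genes. One of 818.4 kb from 885601 contained 7 boundaries and 86 genes. The largest X domain is 635.2 kb, so any longer stretch must contain a boundary. These counts therefore do not relate loops to boundaries.

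**Figure D2:**
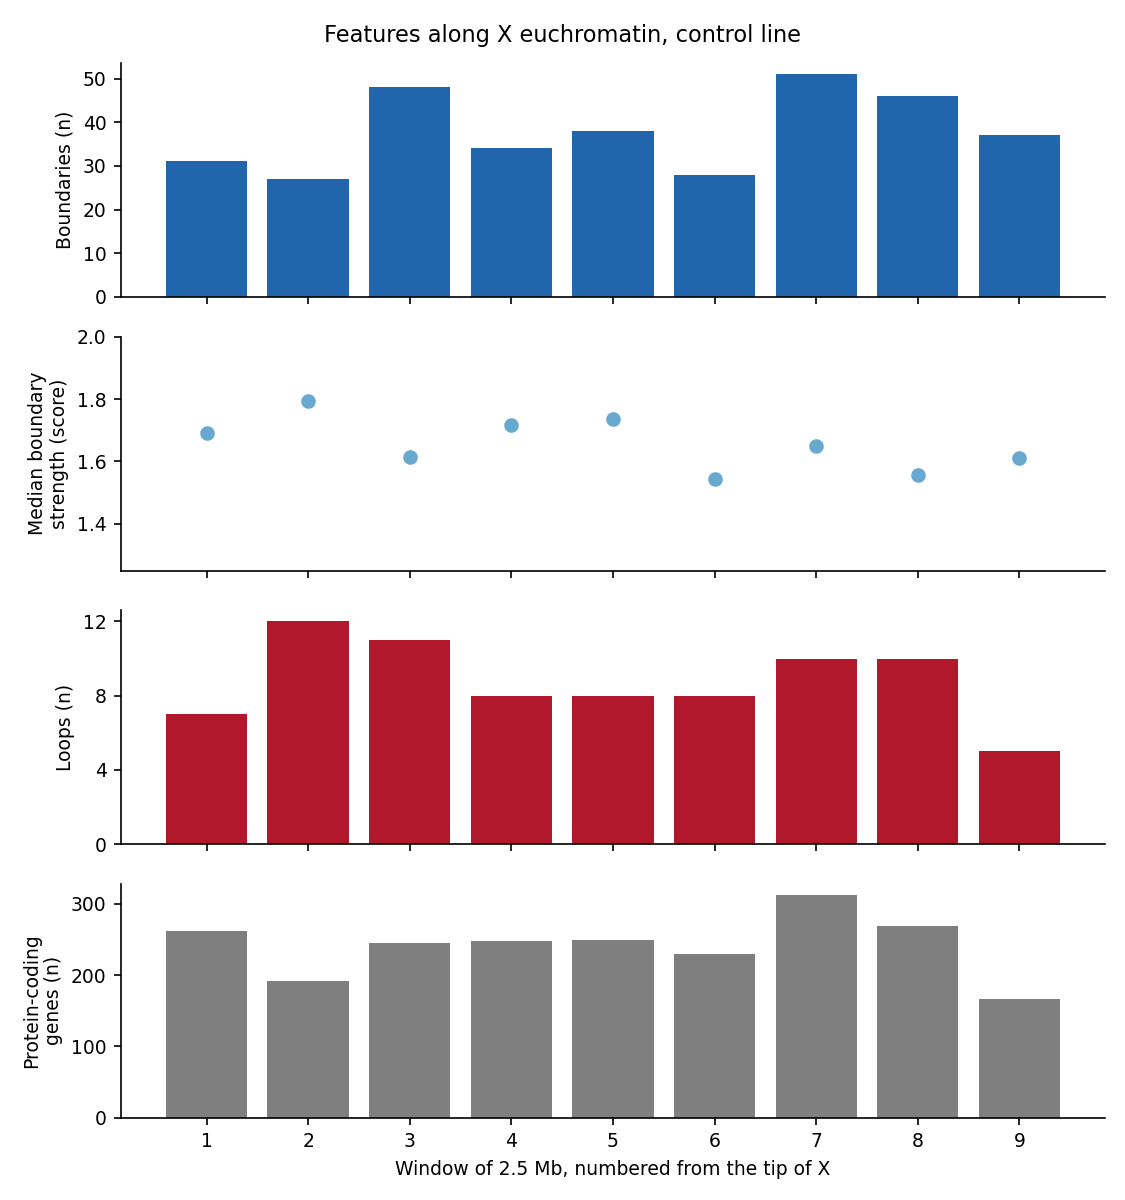
Panels from top to bottom give the number of boundaries, their median strength (authors' score), the number of loops and the number of protein-coding genes in each of 9 windows of 2.5 Mb along X. Window 2 has the fewest boundaries (27) and the most loops (12), and window 9 has the fewest loops (5).

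Most X boundaries lay at gene ends. Of the 340, 284 (83.5%, 95% exact binomial interval 79.2 to 87.3%) lay within 1 kb of where a protein-coding gene ends. The share for bins placed anywhere on X was not computed. A further 31 (9.12%) lay inside a gene away from its ends and 25 (7.35%) between genes. On the autosomes 1077 of 1225 boundaries (87.9%) were at gene ends and 53 (4.33%) were intergenic, with 2.03% (3L) to 6.35% (2R) on single arms. Most of the 25 intergenic X boundaries lay in the gene-poor stretch from 21505601 to the limit. That stretch contained 18 of the 340 boundaries and 40 protein-coding genes. Its intergenic boundaries include a run of 3 neighbours of equal strength (1.98) from 21595601. The higher intergenic share on X thus rests largely on that stretch. The most common arrangement on X was a boundary with 2 genes within 1 kb, found 189 times, and 22 boundaries had 3 or more. The boundaries with 3 or more genes had a median strength of 1.40 (1.35 to 1.56), below the 1.77 (1.58 to 1.89) of the 73 boundaries with 1 gene. Those 22 include a run of 3 neighbours from 11348401 whose equal strength, 1.40, is that median, and the interval counts them separately.

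The very strongest X boundaries were placed differently. Of the 11 with a strength of 3 or more, 3 lay at a gene end, 4 inside a gene and 4 between genes, whereas all 15 with strengths from 2.5 to 3 lay at a gene end. On the autosomes 10 of 23 boundaries of strength 3 or more lay at a gene end, against 44 of 53 from 2.5 to 3. The 4 highest entries on X shared a strength of 4.76 to every deposited digit. They lay at 16044801, 16045201, 16046001 and 16056801, within 12.4 kb inside Muc14A, a mucin gene of 52.6 kb. Equal strengths in neighbouring boundaries occurred in 5 runs on X with 16 boundaries in all. With each such run counted once, 3 of 8 boundaries of strength 3 or more lay at a gene end.

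After the entries in Muc14A came an intergenic pair 5.20 kb apart, at 11200401 (strength 4.37) and 11195201 (strength 3.89), of which the first lay 1448 bp from CG11106. The boundary at 21772001 (strength 3.51) lay 141853 bp from the nearest protein-coding gene end, that of DIP1. A boundary of 3.25 at 5612801 lay at the end of Vsx1, a homeodomain gene of the visual system, with CG34435 also within 1 kb. The boundary at 18843201 (strength 3.18) was 63 bp from htk and 300 bp from Pvf1, a growth factor gene of the PDGF and VEGF family. The boundary of 3.14 at 16105601 lay 655 bp from CG42353 and CG42354, which share their coordinates in the gene table. It is the left border of the domain that holds disco-r and disco.

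Each 2.5 Mb window had its own strongest boundary. From the tip, others of these were at CG16903 and Unc-76 (2080401, strength 2.49), between Rala and Tlk (3719601, 2.93), at mys and fs(1)h (8061601, 2.45), and at Pits and LIMK1 (12583201, 2.34). Rala encodes a small GTPase, Tlk a tousled-like kinase and mys the beta integrin of muscle attachment. In each of these 4 cases a pair of genes had an end within 1 kb of the bin.

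Domain sizes were uneven. The 76 domains of 100 kb or more made up 22.4% of the 339 X domains and 63.6% of their length. They held 7.52 whole protein-coding genes per 100 kb, against 14.6 in the 163 domains of 5 to 50 kb and 10.0 in the 64 domains of 50 to 100 kb. Of the 75 loops that fit in 1 domain, these large domains held 40 (53.3%), a smaller share than their share of length. Loops numbered 2.81 per Mb there, against 5.43 in the domains of 5 to 50 kb and 3.53 in those of 50 to 100 kb, and the 36 domains under 5 kb held none. The 57 domains that contained a loop had a median size of 96.4 kb, and the 282 without one of 26.8 kb. This order is set in part by definition, since a domain must be longer than its loop.

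The largest domain ran 635.2 kb from 4687601, a boundary of strength 2.68 at ctp and Pp2C1, to 5322801, one of 1.41 at Rnp4F and Mcm3. It held 38 whole protein-coding genes and 2 loops, and its genes included ovo, a zinc-finger gene of germline and epidermis, and the splicing gene snf. The next, of 386.8 kb from 7324001 to 7710801, contained ct, the homeodomain gene of sensory organs and wing margin. The third, of 380.4 kb, began inside Ten-a at 12202801 and ended at Pits and LIMK1. The fourth, of 378.0 kb, lay between Clic with Nup93-1 and a boundary at CG11590, yl and Prp16. The fifth, of 374.0 kb from 113601 to 487601, held the whole achaete-scute group of proneural genes, ac, sc, l(1)sc and ase. A domain of 327.2 kb from 21792001 contained no whole protein-coding gene, and it is named here after its values were seen.

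Few loops crossed boundaries. Of the 79, 4 (5.06%, interval 1.40 to 12.5%) had a boundary wholly between their anchors, against 16 of 224 (7.14%) on the autosomes. The loop of highest value on X, 127.5, was one of these, and its boundary of strength 1.59 at 12202801 directly adjoined the right anchor. The loop from CCKLR-17D1 to CG6891 and CCKLR-17D3, near receptor genes for cholecystokinin-like peptides, crossed boundaries of 1.44 and 1.81. A loop that began 1181 bp outside kek5 and ended within this leucine-rich repeat gene crossed boundaries of 2.04 and 1.53. The loop to run crossed one of 1.30. The values of these last 3 loops were 5.92, 4.88 and 4.89. The other 75 loops lay in 1 domain each and took up a median of 31.3% of its length (25.4 to 39.2%).

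Anchors were mostly well inside domains. Joined where they touched, the anchors numbered 150, with a median distance of 23.4 kb to the nearest boundary. Of these, 4 overlapped a boundary (2.67%, interval 0.731 to 6.69%), and 15 lay within 1 kb of one. Shares for sites placed anywhere on X were not computed, so these counts do not show that anchors avoid boundaries. The 4 overlapping anchors were those at disco (boundary strength 1.61), NetA (1.27), Rubicon (2.40) and one inside Smr (1.43). Of the 150 anchors, 67 (44.7%, interval 36.6 to 53.0%) had a gene end within 1 kb, 56 (37.3%) lay in a gene body and 27 (18%) between genes. The autosomes had 41.8%, 36.8% and 21.4% of 416 anchors in these classes. Shares for sites placed anywhere on X were not computed for these classes either, so no preference of anchors for gene ends is shown.

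Loops joined genes in a few recurrent ways. The ends of 2 different genes were joined by 18 loops (22.8%), with a median value of 15.8 (5.92 to 28.3). Both anchors lay inside the same gene in 24 loops (30.4%), with a median value of 5.85 (4.68 to 8.93), and 4 loops belong to both classes. The remaining 41 had a median of 13.3 (6.98 to 20.4). On the autosomes 21.4% of 224 loops were inside 1 gene, with 12.8% (3L) to 30.2% (2R) on single arms, so the share on X was close to that of 2R. Loops of greater span had higher values, with a rank correlation of 0.45 over the 79 loops. The 40 loops of at least the median span had a median value of 18.8, and the 39 shorter ones 7.07.

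**Figure D3:**
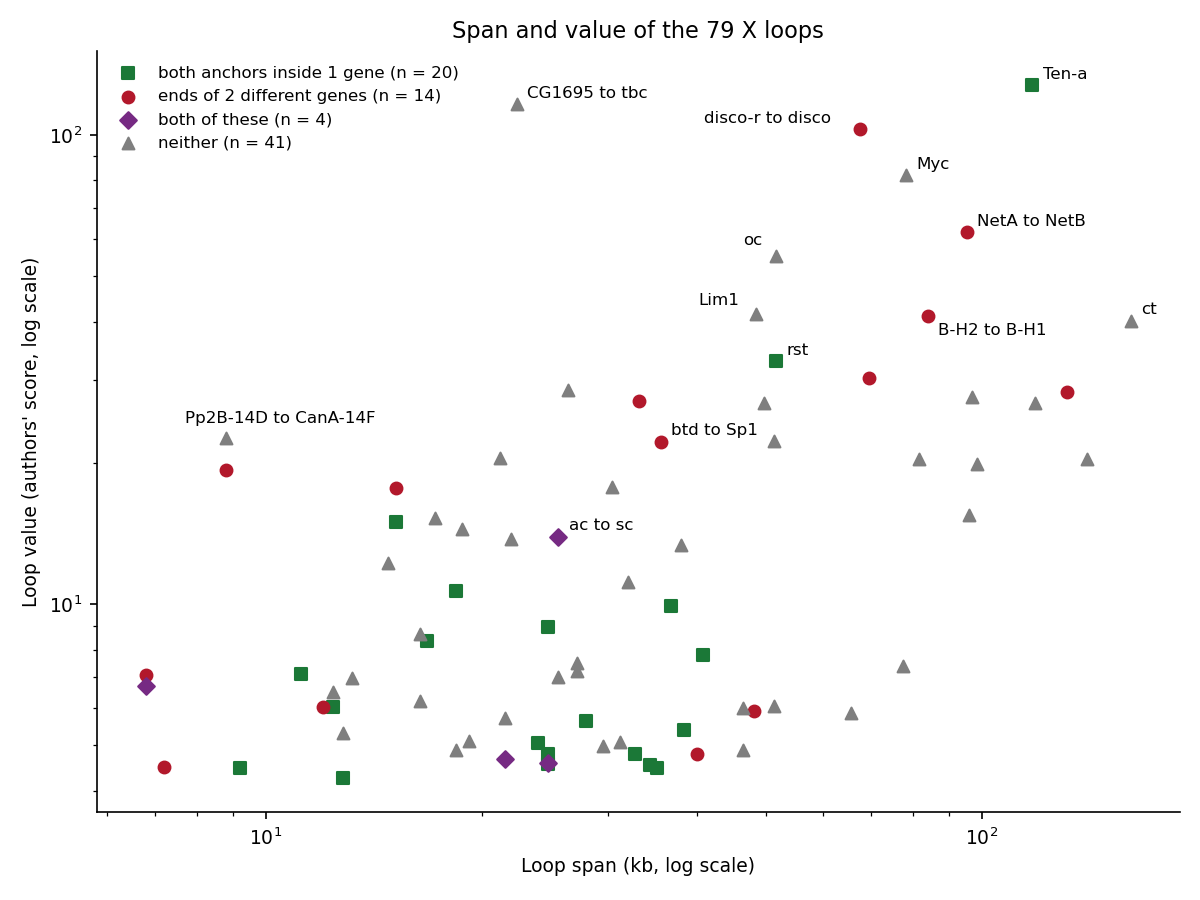
Each point is 1 of the 79 X loops, with its span in kb and its value (authors' score), both on log scales, and the symbol says whether both anchors lie inside 1 gene, at the ends of 2 different genes, both, or neither. Of the 10 loops of highest value, 9 have spans at or above the 28.0 kb median, and the loop from CG1695 to tbc, at 22.4 kb, is the exception.

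The loop of highest value lay inside Ten-a, whose teneurin product matches synaptic partners, and had 127.5 over 117.6 kb. Next was a loop of 22.4 kb and value 116.4 from inside CG1695 (20442801) to inside tbc (20465201). It had no gene end within 1 kb of either anchor. The third joined disco-r (224 bp) and disco (51 bp), which encode zinc-finger proteins needed for head and leg structures, with 102.8. The right anchor of that loop was at the same time the right border of their domain.

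A loop of 82.2 ran 78.4 kb from the end of Myc, the growth regulator, to 3451201, which is 2258 bp beyond CG12535. A loop of 62.1 joined NetA (73 bp) and NetB over 95.2 kb, the genes of the secreted netrins that guide axons at the midline. Its left anchor at 14654001 coincided with a boundary of 1.27, and the genes CG5321, CG43088 and hog lay whole between the anchors. The loop of 55.3 at the head gap gene oc enclosed oc, from 8624801 to an anchor 263 bp from Rubicon. That right anchor was also a boundary. A shorter loop of 6.98 from the same left anchor ended at oc itself.

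Lim1, a LIM-homeodomain gene, had a loop of 41.6 from inside the gene to 197 bp beyond its right end. B-H2 and B-H1, the Bar homeodomain genes, were joined with 41.1 over 84.0 kb. The loop of 40.2 that ended 2028 bp from ct was the longest on X, 161.2 kb, and it passed over 7 whole genes. A loop of 33.0 began 167 bp from rst and ended inside kirre, whose annotated span contains rst. These are immunoglobulin-family genes of myoblast fusion and eye patterning.

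Some loci had several loops that shared anchors. Of the 150 anchors, 8 took part in 2 loops, and none in 3 or more. At bi, the T-box gene also called optomotor-blind, 3 anchors were joined pairwise. One lay 856 bp from the gene's left end, another 13545 bp inside the gene and the third in intergenic sequence at 4508001, 21431 bp from CG3556. The loop values were 27.6 for the outer pair, 20.4 for the inner right pair and 12.3 for the left pair. This was the only set of 3 mutually joined anchors on X.

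The Bar genes came close to the same layout. Their long loop of 41.1 was accompanied by a loop of 11.2 from B-H2 (181 bp) to intergenic sequence 21826 bp beyond it, and by a loop of 22.2 from that intergenic site to B-H1 (278 bp). The B-H2 anchors of the first and second loops were separate bins, at 17313201 and 17314001. All 3 loops lay in a domain of 118.4 kb. Mnt, which encodes a partner of Max that opposes Myc, had 2 loops inside the gene (10.7 and 7.09) that shared a left anchor. Ptp10D, a receptor tyrosine phosphatase gene, likewise had 2 (8.93 and 5.38).

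**Figure D4:**
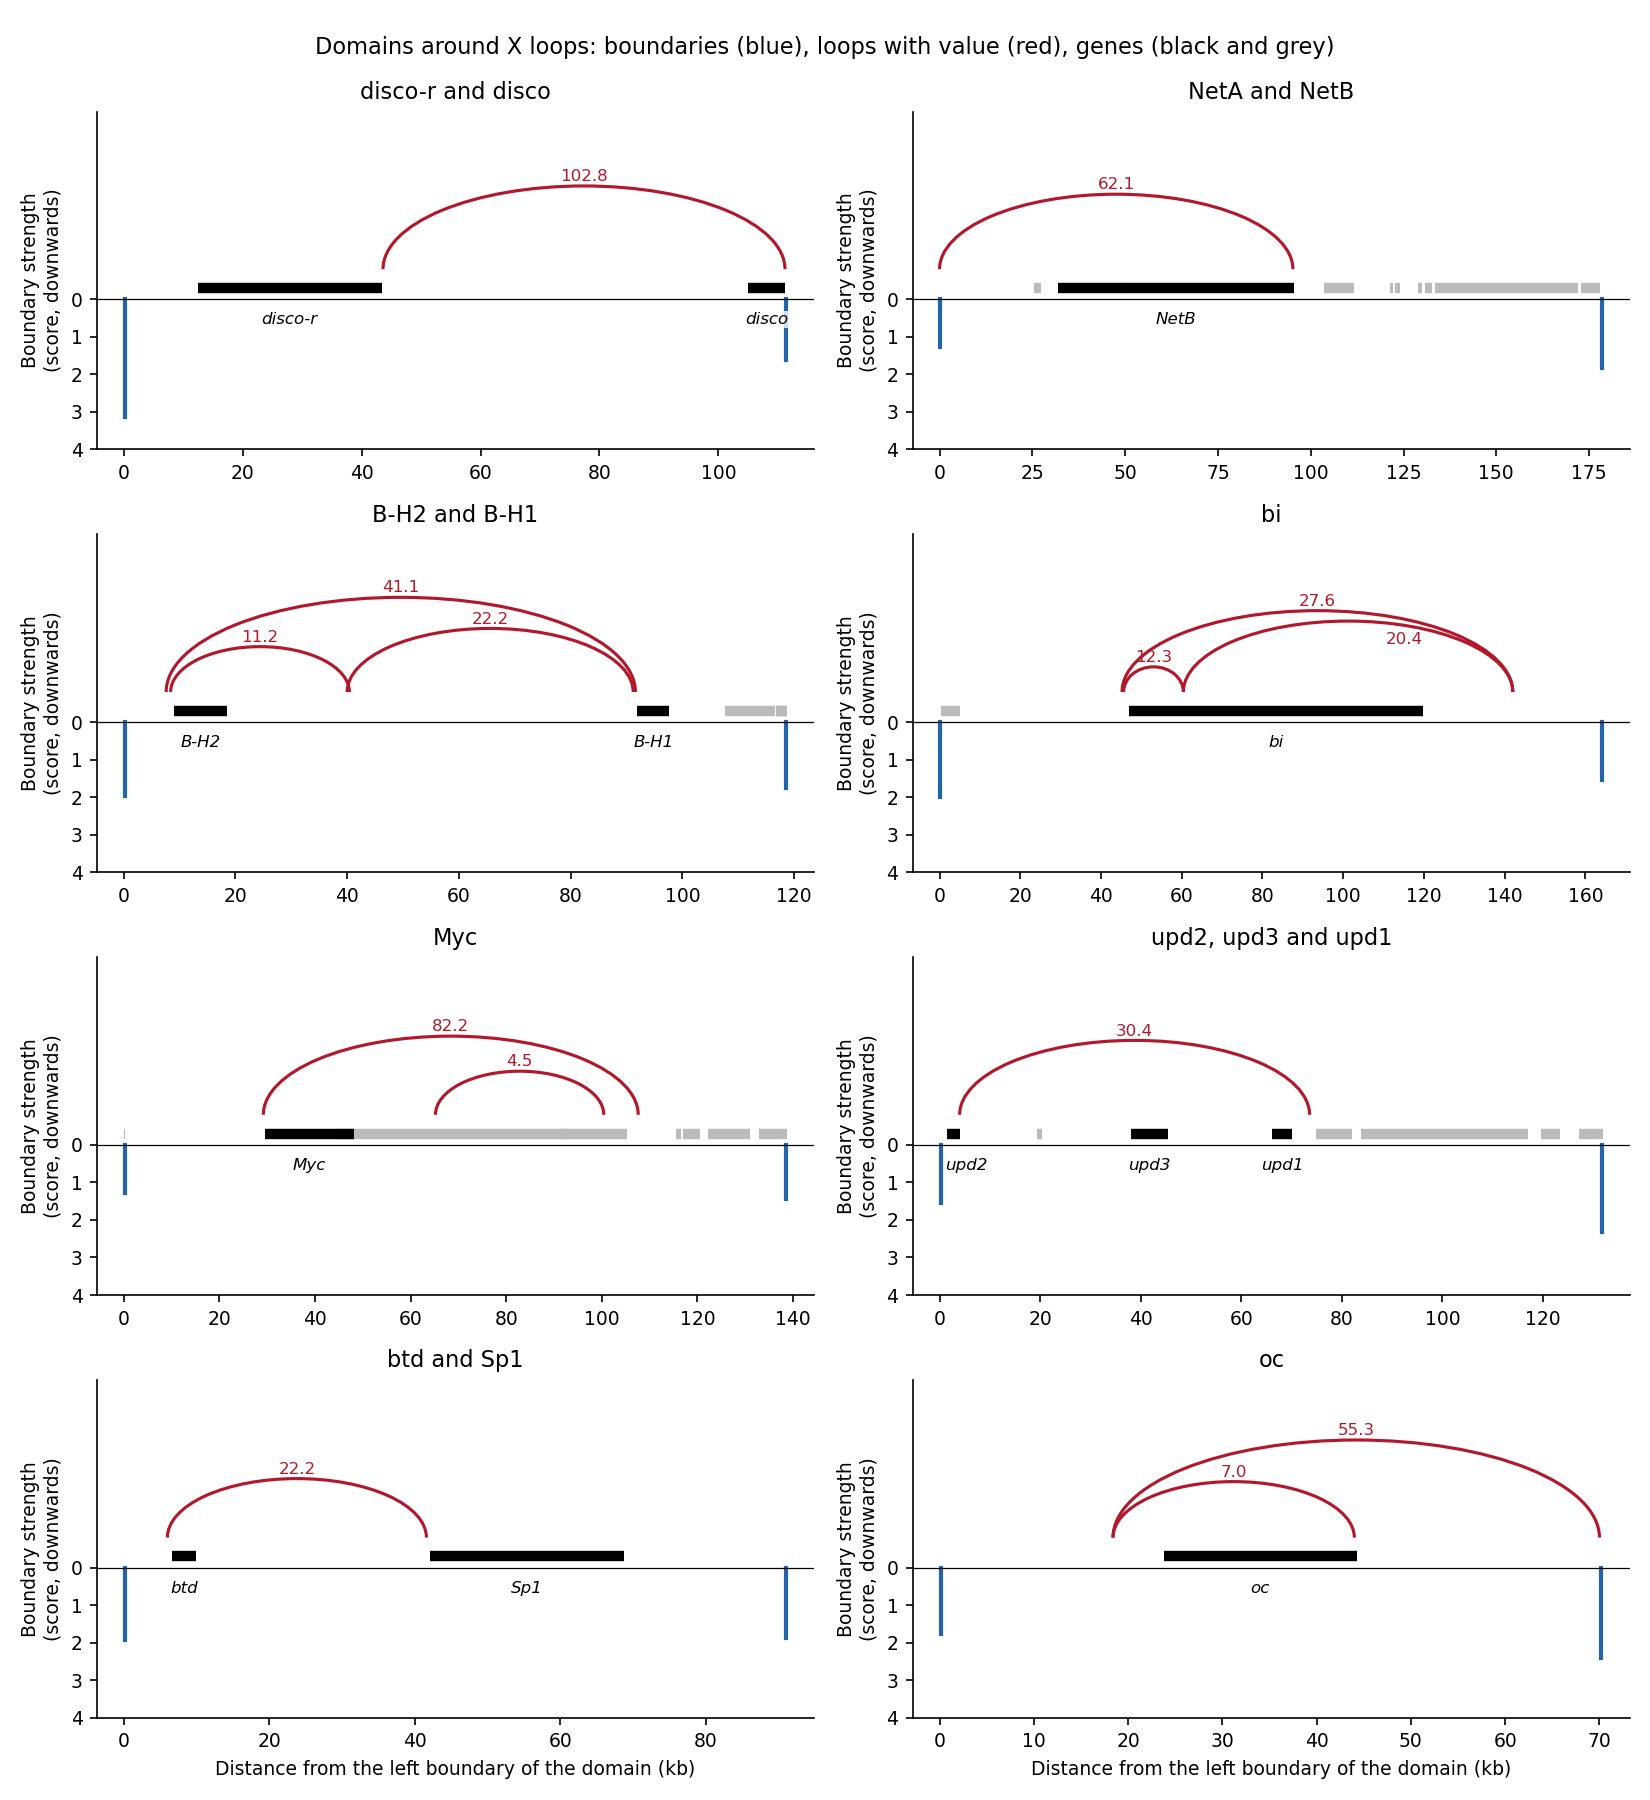
Each panel is the domain around 1 loop, in kb from its left boundary, with boundaries as blue lines whose downward length is the strength, loops as red arcs marked with their value, the named genes in black and other protein-coding genes in grey. Arc heights follow span and not value. The anchors of bi are joined pairwise by loops of 27.6, 20.4 and 12.3, and the right anchor at disco and the left anchor of the NetA and NetB loop stand on a boundary (NetA itself lies just left of the drawn domain).

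The 5 longest loops ran to ct (161.2 kb), from inside rg to near CG42749 (140.0 kb, value 20.4), from CG17065 to jb (131.6 kb, value 28.3), from CG43737 to CG5877 (118.4 kb, value 26.9) and within Ten-a (117.6 kb). The loop between CG17065 and jb filled 98.5% of its domain, the largest share on X. The 5 shortest began with a pair of 6.80 kb. They joined CG32579 and CG9917 to CG9919 and CG9921 (value 7.07) and CG9676 to CG9672 and CG4653 (6.69). A loop of 7.20 kb joined CG12541 to Sxl (4.49). Loops of 8.80 kb joined CG15646 to CG12708 (19.3) and the calcineurin genes Pp2B-14D and CanA-14F (22.7). The last value was above the upper quartile of all X loops despite the short span.

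Genes that count and compensate X chromosomes were examined as a list of their own. Of 6 genes of the X signal and sex determination, 3 had an end near (within 1 kb of) a loop anchor, against 3.6% of all 2169 protein-coding genes of X. They were sc (60 bp, loop value 13.9), run (270 bp, 4.89) and Sxl (150 bp, 4.49). sc and run encode transcription factors that report X number, and Sxl is the switch they act on. The loops of run and Sxl were below the lower quartile of 5.68. Of the other X-signal genes, the ligand gene upd1 lay 3510 bp from an anchor, and sisA, a bZIP factor gene, lay 198379 bp from one. The splicing gene snf was 17242 bp away. Sxl was the only one of the 6 at a boundary (16.7%, against 22.499% of all genes), of strength 1.90, located 53 bp from its right end.

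Both roX genes lay at boundaries. The boundary at 3862401 overlapped an end of roX1 and had a strength of 2.01, rank 73 of 340. The boundary at 11580001 lay 32 bp from an end of roX2, inside the gene, with a strength of 1.99, rank 78. Protein-coding genes stood beside both bins as well, yin at 166 bp and nod at 372 bp. Of all 233 lncRNA genes of X, 7.73% lay as close to a boundary at either end. Neither roX gene was within 1 kb of a loop anchor, at 78830 bp for roX1 and 48769 bp for roX2. mof, the acetyltransferase gene of dosage compensation, was 31148 bp from a boundary and 5840 bp from an anchor.

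Paired transcription factor genes were the list most often at anchors. Anchors lay within 1 kb of 11 of the 14 members (78.6%), against 3.6% of all protein-coding genes of X. The values included 102.8 for disco and disco-r, 41.1 for B-H1 and B-H2, 22.2 for btd and Sp1, 20.5 for unc-4 and 13.9 for ac and sc. In each of disco-r with disco, B-H2 with B-H1, btd with Sp1 and ac with sc, a loop joined an end of both members. OdsH, the neighbour of unc-4, lay 1410 bp from the other anchor of that loop. Among the proneural genes, l(1)sc and ase were not at an anchor (13721 and 64747 bp).

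Of 17 other developmental transcription factors, 8 were at anchors (47.1%, against 3.6% of all genes). In order of value they were Myc (82.2), Lim1 (41.6), bi (27.6), ct (14.5), lz (13.8), peb (7.20), oc (6.98) and run (4.89). lz is a Runt-domain gene of blood and eye, and peb a zinc-finger gene of the amnioserosa. ct had this loop from its end into the gene body besides the long one that ended near it. Hr4, a nuclear receptor gene, had a loop of 4.56 wholly inside the gene and none at its ends. No anchor was within 1 kb of gt, vnd, sd, acj6, fd19B, br, ovo or zld. Of the 17, 2 were at boundaries (11.8%, against 22.499% of all genes), br (boundary strength 1.34) and zld (1.59). zld is the activator of the early zygotic genome that is also called vielfaltig.

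Of 14 signalling genes, 7 (50.0%) were at boundaries, against 22.499% of all protein-coding genes of X. The JAK/STAT ligand gene upd2 was the 1 member at an anchor (7.14%, against 3.6% of all). The 5 strongest were at Pvf1 (3.18), the Frizzled receptor gene fz4 (2.62), Notch (2.57), the kinase gene sgg (1.96) and the phosphatase gene csw (1.59). The boundary of N, at 3134401, overlapped the end of kirre and lay 70 bp from N. The loop at upd2 had a value of 30.4 and ran 69.6 kb over upd3 and upd1 to a bin 924 bp from CG6023. All 3 ligand genes and this loop were in a single domain of 131.6 kb.

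Of 16 adhesion and channel genes, 3 were at anchors (NetA, NetB and rst; 18.8%, against 3.6% of all genes) and 6 at boundaries (37.5%, against 22.499%). The 6 were kirre (2.57), the integrin genes mys (2.45), if (2.14) and mew (1.58), the cell adhesion gene Nrg (2.13) and NetA (1.27). Several long genes of this list had anchors in the gene body and none within 1 kb of an end. Ten-a, 291.5 kb long, held 2 and mew held 4. The channel genes Sh, para and eag had neither anchors nor boundaries within 1 kb.

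Of 14 ribosomal protein genes on X, 9 (64.3%, interval 35.1 to 87.2%) lay within 1 kb of a boundary, against 22.499% of all genes. None was at an anchor, which is near the 3.6% of all genes for a list of this size. RpL17 (2.35), RpL22 (1.88), RpL7A (1.87), RpS28b (1.80) and RpS19a (1.76) stood at the strongest. Mitochondrial ribosomal protein genes had 4 of 11 at boundaries (36.4%), mRpL22 (1.94), mRpL16 (1.65), mRpL3 (1.51) and mRpL14 (1.47), and 0 at anchors. Of 40 late tissue-specific genes (odorant, gustatory and ionotropic receptors, odorant-binding, cuticle and chorion proteins), 2 were at boundaries (5.00%, against 22.499% of all genes), Or9a (1.91) and Gr5a (1.58). Obp19d was at an anchor (5.10), 2.5% of the list against 3.6% of all genes. The 7 clustered Ir7 genes lay between 14225 and 42982 bp from the nearest boundary. Or10a and Gr10a share their coordinates in the gene table and count as 2 genes.

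**Figure D5:**
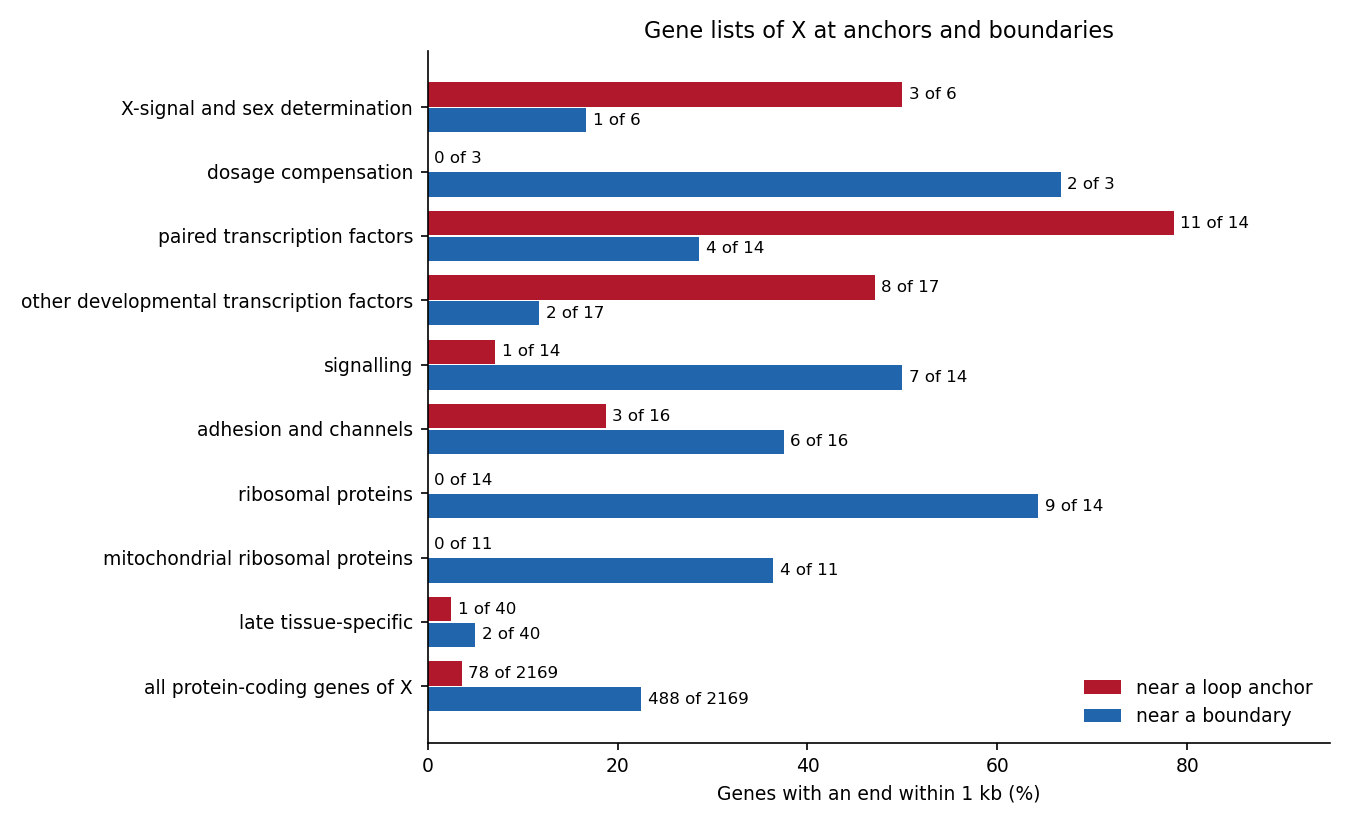
Bars give the percentage of each X gene list with a gene end within 1 kb of a loop anchor (red) or of a boundary (blue), with the counts beside them, and the last row gives all 2169 protein-coding genes. Paired transcription factors reach 11 of 14 at anchors, and ribosomal proteins 9 of 14 at boundaries and 0 of 14 at anchors.

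Over the union of the sex-determination, transcription factor and signalling lists, 21 of 48 X genes (43.8%, interval 29.5 to 58.8%) were at anchors, against 3.6% of all protein-coding genes of X. The same union had 14 genes (29.2%) at boundaries, near the 22.499% of all genes. Genes inside a pair share a loop, so the 48 are not independent of each other. All lists were drawn up with earlier results of this map known, and no test of the lists was made.

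Genes with both anchors of a loop inside them, which by definition are longer than that loop, numbered 21 and carried 24 loops, since Mnt, Ptp10D and mew had 2 each. Their lengths ran from 15.0 kb (CG4678) to 394.1 kb (kirre). Beyond those already described they included the kinase genes Raf (value 4.55) and Tlk (9.90), raskol, which encodes a Ras GTPase-activating protein (8.36), the small GTPase gene RhoU (5.65) and the lipase gene inaE (4.27). Of these only Tlk was above the X median of 8.65, and Ten-a and kirre alone among the 21 had a loop above the upper quartile of 21.3.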

How the data were processed

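Embryos were collected for 45 min at 25 °C and incubated for 2 h, and libraries were read with 50 bases per mate, per the labels' protocols. Reads were aligned with BWA 0.7.17 to dm6, per the submitters' processing notes. The boundary and loop callers' settings, and whether the 2 yw samples were pooled, go unstated in the labels and files used. Boundary strength, loop value and the SIP caller's other columns are scores deposited by the authors, and the probability of enrichment is a fraction deposited by the authors (not printed here). The boundary list's label names a minimum of 1.25, so weaker boundaries are unlisted. The authors' scores give no counts, so depth is unknown.

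Of 2034 boundary entries, 14 exact repeats were removed, 1 of them on euchromatic X. Genes came from the RefSeq table of the Release 6 assembly (dm6), which has no strand and no sequence, so starts were not placed, planned motif searches were not run and no sequence is shown. A gene counted as near a feature when either end was within 1 kb. Loop span ran between anchor starts, and a domain between starts of neighbouring boundaries. Touching anchors were joined. Overlap meant at least 1 bp. Autosomal euchromatin was 2L below 22.0 Mb, 2R from 5.4 Mb, 3L below 22.9 Mb and 3R from 4.6 Mb. Intervals are Clopper-Pearson for shares and distribution-free binomial for medians, at 95%, and cover counting only. No test was run, since each list holds 1 value per feature and regions are not replicates. Functions were checked on simulated features with Python 3.11.15, pandas 2.3.3 and scipy 1.17.1.

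Members and gene lists were chosen with earlier results of these data known. Named are genes at the 10 strongest boundaries, the 10 loops of highest value, the 5 longest and 5 shortest loops, anchors of several loops, loops that span a boundary, the borders of the 5 largest domains, each window's strongest boundary, list members at anchors, and up to 5 per list at boundaries. Other list members complete a count. Results on 1 gene covered by this rule are not reported here. Raf, Tlk, raskol, RhoU, inaE and CG4678 were named after their values were seen. The listed symbol vfl is zld in the gene table.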

Additional observations from a re-analysis of the deposited data

How the results depend on the processing

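Over 14 results and 40 alternatives, 29 values stayed within the 95% interval of the reported value and 11 moved. A change of direction was defined only for the X to autosome ratios, and these all stayed above 1. With boundaries of at least the median euchromatic strength (1.61), X had 7.96 boundaries per Mb and a median domain of 84.4 kb. Keeping loops at or above the median value (7.75) left 1.87 loops per Mb of X and a median span of 37.4 kb. The X to autosome ratio, 1.14 for boundaries per Mb and 1.45 for loops per Mb as reported, ran from 1.07 to 1.22 and from 1.51 to 1.65 over the alternatives, and was highest for loops with whole autosomal arms. With a gene end required inside the feature, 45.9% of boundaries, 13.3% of anchors, 12.5% of developmental genes at anchors and 7.14% of ribosomal protein genes at boundaries remained. Within 2 kb, 54.7% of anchors had a gene end. These shares follow the distance by construction; the cause of the other changes was not tested. Anchors at a boundary made up 10% within 1 kb and 20% within 5 kb. Counting neighbours of equal strength once, an alternative added after seeing the data, left 329 boundaries, 14.6 per Mb. No paired analysis was possible because the lists have no column per sample. Without counts, depth sets no stated limit, and unlisted features may exist below the authors' thresholds.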

Other observations

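Some X loops enclosed a whole developmental gene, and these genes were picked once their values were known. Of those named here, ph-p alone had an anchor within 1 kb of an end. A loop of 24.0 kb and value 5.06 enclosed brk, the repressor gene of Dpp targets, and both of its anchors lay inside CG1677. A loop of 17.2 kb and value 15.3 from near CG12123 to CG15347 and Es2 enclosed the T-box gene org-1. The Polycomb group gene ph-p was enclosed by a loop of 15.2 kb and value 17.6 that began 610 bp from it and ended 689 bp from D2hgdh. Inx7 lay inside a loop of 16.4 kb (value 6.21) between the innexin genes ogre and Inx2. The ecdysteroid synthesis gene phtm lay inside a loop of 27.2 kb (value 7.50) that ended at Cyp18a1, a gene of ecdysteroid breakdown.

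The loop from inside mamo at 13986401 to 14082401 (value 15.5, 96.0 kb) passed over 14 whole genes, the most of any X loop. All but ben belong to the Stellate family of near-identical copies. How reads that match several copies were treated is not stated in the labels, so contacts within that array are uncertain.

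The other runs of equal strength on X were 3 boundaries each, of 1.34 from 6035201 near rux, 2.53 from 11154401 at Dlic, 1.40 from 11348401 at CG11756 and 1.98 from 21595601 near GCS2alpha. Each covered 2.00 or 2.40 kb. Of the boundaries on X, 11 had the strength of the one before, against 2 on 2L, 3 on 2R, 7 on 3L and 6 on 3R.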
